A study of Mus musculus with 6 samples.

Results

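Insulin-like growth factor (IGF) ligands, their receptors and their binding proteins were examined in osteal macrophages (Omacs), which sit along bone surfaces. The genes are taken by name: the ligands Igf1 and Igf2, the receptors Igf1r and Igf2r, and the binding proteins Igfbp2 to Igfbp7. Of these 10 genes, 9 are among the 11815 genes of the table, and Igfbp2 is not analysed here. Omacs came from BALB/c female mice that were ovariectomized (OVX) or sham operated at 10 weeks of age, and RNA was sequenced 4 weeks after surgery in 3 OVX and 3 sham libraries. The cells were gated as CD11b+ with F4/80 or CD68 from femurs and vertebrae of 20 mice per condition, and no source used here tells how the mice were divided over the libraries. Ovariectomy removes the main source of estrogen and is a model of the postmenopausal state. The comparison therefore asks which genes of this system differed between Omacs of OVX and sham mice.

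IGF1 and IGF2 are secreted growth factors, and bone matrix is one of their large stores. Both signal through the tyrosine kinase receptor encoded by Igf1r, while the receptor encoded by Igf2r carries IGF2 to lysosomes for degradation. The binding proteins hold the ligands in the extracellular space, extend or block their action, and release them when proteases cut the binding protein. IGFBP6 prefers IGF2 over IGF1, IGFBP5 binds to bone mineral and matrix, and IGFBP7 is a related protein with low affinity for IGFs. In bone, these proteins are made largely by osteoblasts, fibroblasts and other stromal cells, and IGF1 is also made by macrophages.

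Values are TPM, a transcript abundance normalised for transcript length and for the total of a library, summed over the transcripts listed for a gene and divided by a scaling factor per library, so they can be compared between genes per length. OVX replicate 3 stood apart from the other libraries. Its listed transcripts summed to 66.31% of the full TPM total of a library, against 80.53% to 82.97% in the other 5 libraries, and its correlation with them over log2 levels was 0.9362 to 0.9507, against 0.9774 to 0.9824 among the others. Values of the members are therefore given with and without it. Macrophage markers were found only in part: Cd14, the coreceptor for bacterial lipopolysaccharide, averaged 799 TPM in OVX-Omacs and 711 TPM in sham Omacs, but Csf1r, the receptor for the macrophage growth factor, was listed at 0 in all 6 libraries. Adgre1, which encodes F4/80 used in the gate, was at 0.467 to 1.05 TPM in OVX-Omacs and at 0.640 to 1.16 TPM in sham Omacs. Genes used by most cells, such as Pik3ca, were also listed at 0 in some libraries, and 2202 of the 23115 listed transcripts were at 0 TPM in all libraries, so a 0 can be a failed estimate and a gene's sum can be too low. The stromal marker Dcn, a matrix proteoglycan, averaged 12050 TPM in OVX-Omacs and 14260 TPM in sham Omacs, with Sparc at 3729 TPM in OVX-Omacs and 3577 TPM in sham Omacs and Lum at 52.8 TPM in OVX-Omacs and 50.5 TPM in sham Omacs from the same list. The neutrophil marker S100a9 averaged 66710 TPM in OVX-Omacs and 41090 TPM in sham Omacs. The libraries thus held markers of several cell types. In bulk RNA fewer cells of a type and less RNA per cell cannot be told apart.

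The promoter windows of the 3 binding proteins with the highest levels are shown because they include the 2 most abundant members, both lower on average in OVX-Omacs, and the 1 binding protein that was higher on average. They are RefSeq windows on GRCm38.p6, 250 bases before to 50 bases after the annotated start, written 5′ to 3′ on the strand of the gene, and capitals mark the estrogen response half-site GGTCA or its reverse TGACC.
Igfbp7, chr5:77407996-77408295, minus strand: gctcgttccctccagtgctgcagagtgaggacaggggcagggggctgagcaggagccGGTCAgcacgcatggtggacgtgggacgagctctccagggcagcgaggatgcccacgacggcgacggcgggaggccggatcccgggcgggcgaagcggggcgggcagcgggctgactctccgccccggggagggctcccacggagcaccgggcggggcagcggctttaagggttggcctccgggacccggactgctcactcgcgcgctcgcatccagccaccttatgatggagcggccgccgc
Igfbp6, chr15:102143936-102144235, plus strand: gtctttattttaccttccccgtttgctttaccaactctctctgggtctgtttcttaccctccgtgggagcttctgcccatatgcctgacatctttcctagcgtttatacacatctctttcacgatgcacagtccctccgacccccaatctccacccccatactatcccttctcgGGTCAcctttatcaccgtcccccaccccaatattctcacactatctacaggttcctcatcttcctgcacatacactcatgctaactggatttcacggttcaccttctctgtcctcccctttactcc
Igfbp5, chr1:72874816-72875115, minus strand: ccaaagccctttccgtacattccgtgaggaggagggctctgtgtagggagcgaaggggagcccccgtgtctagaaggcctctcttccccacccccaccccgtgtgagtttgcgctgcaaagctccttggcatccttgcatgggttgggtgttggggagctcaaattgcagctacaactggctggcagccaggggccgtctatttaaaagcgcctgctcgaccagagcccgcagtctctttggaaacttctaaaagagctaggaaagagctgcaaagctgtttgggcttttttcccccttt
The Igfbp7 window holds 1 half-site, 193 bases before the start, and 4 GC boxes (GGGCGG), and 73.3% of its bases are G or C. The Igfbp6 window holds 1 half-site, 76 bases before the start, and no GC box, and its G and C content is 49.7%. Its RefSeq start lies 176 bases from the start of the listed Igfbp6 transcript. In the Igfbp5 window neither motif occurred, on either strand. A half-site occurred in 40.5% and a GC box in 35.7% of 32851 windows of the same length. The full palindrome GGTCANNNTGACC, present in 0.07% of windows, occurred in none of the windows of the 10 genes. Among the other tested members, the Igfbp3 and Igfbp4 windows, of genes with lower OVX means, held 0 half-sites. The Igf1r window, of a gene with a higher OVX mean, held 1. For Igf2r and Igf2, both with lower OVX means, the Igf2r window held 2 and the Igf2 windows held 2, 0, 0 and 2. Half-sites were thus present in some windows, and absent from others, of genes with lower and with higher OVX means. Each motif was searched on both strands, and these matches describe letters only.

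Binding protein RNA far outweighed ligand and receptor RNA in every library. The order of mean levels over the 6 libraries was Igfbp7 (522 TPM), Igfbp6 (116 TPM), Igfbp5 (20.6 TPM), Igfbp3 (13.1 TPM), Igf2 (6.33 TPM), Igfbp4 (4.24 TPM), Igf1r (2.25 TPM), Igf2r (2.09 TPM) and Igf1 (0.350 TPM). From Igfbp5 down to Igf2r, each gene's range over the libraries overlapped that of the next, but within the libraries the order held further. The order from Igfbp7 to Igfbp4 was the same in each of the 6 libraries, Igfbp4 was above Igf1r in 5 of 6, and Igf1r above Igf2r in 3 of 6.

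**Figure D1:**
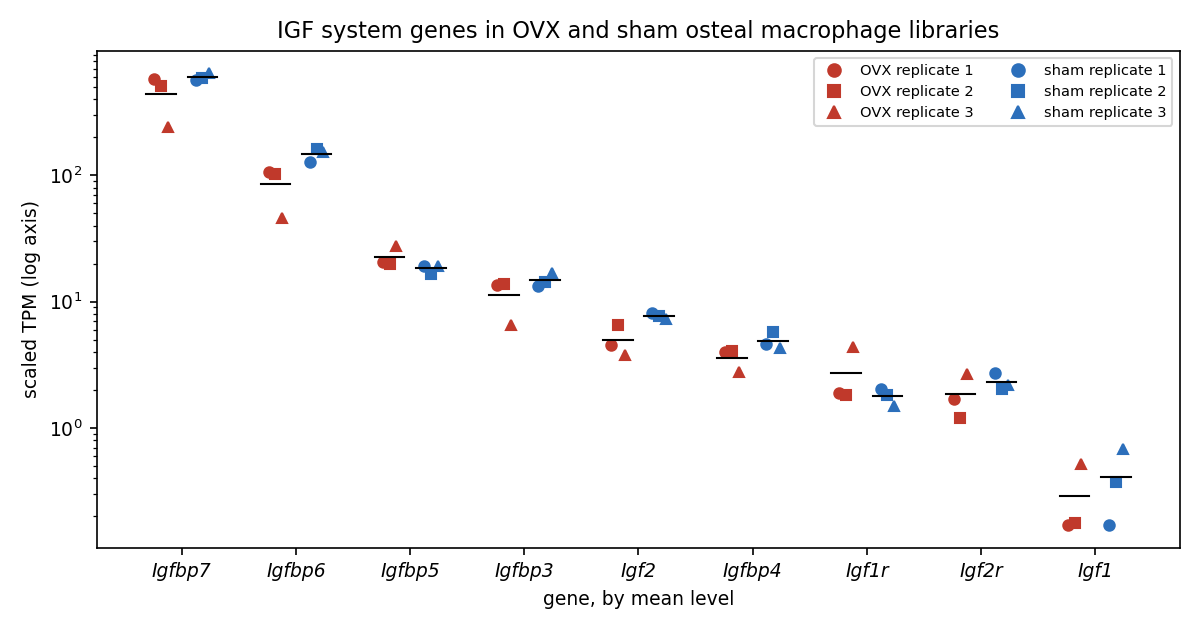
Scaled TPM (log axis) of the 9 listed IGF genes, by mean level, with OVX libraries in red to the left of sham libraries in blue. Each point is 1 library and each bar a group mean; OVX replicate 3 (red triangle) is the lowest OVX library for Igfbp7 at 242 TPM and for Igfbp6 at 46.3 TPM, and the highest for Igfbp5 at 27.5 TPM.

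No member passed the test. With limma on log2(scaled TPM + 1) and Benjamini-Hochberg adjustment over the 8184 genes that averaged 1 scaled TPM or more, 0 of the 8 tested members were called at an adjusted p of 0.05, while 0.0122% of all genes were called higher and 0% lower in OVX-Omacs. Adjusted p-values of the members lay between 0.68 and 0.81. Without adjustment, 2 of the 8, Igf2 and Igfbp6, had p under 0.05, both lower in OVX-Omacs, where 3.42% of all tested genes were lower and 3.46% higher by that rule. The OVX mean was lower for 6 of 8 members, against 51.6% of all tested genes. The groups did not overlap for 3 members that were lower (Igf2, Igfbp4 and Igfbp6) and 1 that was higher (Igfbp5) in OVX-Omacs, against 7.8% and 7.42% of all tested genes. The median log2 fold change was -0.39 over the tested members and -0.01 over all tested genes. Without OVX replicate 3 these medians were -0.18 and -0.01, with 6 of 8 members still below 0. Before scaling, on TPM as deposited, 5 members (Igf2, Igfbp3, Igfbp4, Igfbp6 and Igfbp7) were lower without overlap and 0 higher, but there the median of all genes was -0.15 and 13% of genes were lower without overlap.

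**Figure D2:**
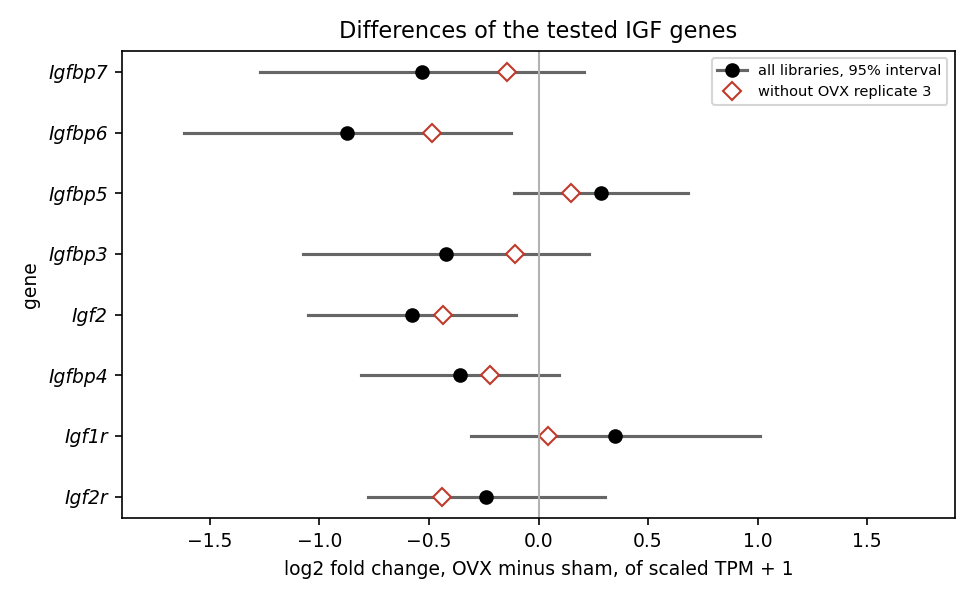
Log2 fold change (OVX minus sham, log2 of scaled TPM + 1) of the 8 tested members with 95% intervals over all 6 libraries (black), and the value without OVX replicate 3 (open diamonds). The intervals of Igfbp6 and Igf2 lie below 0 before adjustment over genes, and all values but that of Igf2r move toward 0 when OVX replicate 3 is left out.

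Among the binding proteins, Igfbp6 had the largest difference. This gene (ENSMUSG00000023046, chromosome 15, 102144362 to 102149511, plus strand, GRCm38) has 1 annotated transcript of 4 exons, which is the one listed. Igfbp6 was at 106.5, 102.2 and 46.3 TPM in OVX-Omacs, against 127.9, 161.1 and 153.2 TPM in sham Omacs. Every OVX library was thus below every sham library, and OVX replicate 3 was the lowest of all. The means were 85.0 ± 33.6 TPM in OVX-Omacs and 147.4 ± 17.4 TPM in sham Omacs (SD, n = 3 each), a log2 fold change of -0.87 ± 0.32 (SE) with a limma adjusted p of 0.69 and an unadjusted 95% interval of -1.62 to -0.13. Leaving out OVX replicate 3 gave -0.49 with an adjusted p of 0.286, and over all alternatives the adjusted p was 0.229 to 0.976. On TPM as deposited it was -1.03.

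Igfbp7 was the most abundant member and took 74.4% to 80.0% of the summed binding protein TPM in OVX-Omacs and 74.8% to 77.6% in sham Omacs. It lies on chromosome 5 (ENSMUSG00000036256, 77349240 to 77408041, minus strand), and both annotated transcripts are listed. Its level was 578.5, 510.2 and 241.6 TPM in OVX-Omacs, against 571.7, 588.0 and 641.2 TPM in sham Omacs. The groups overlapped, because OVX replicate 1 was above sham replicate 1, and the low OVX mean came mainly from OVX replicate 3. The means were 443 ± 178 TPM in OVX-Omacs and 600 ± 36.4 TPM in sham Omacs, with a log2 fold change of -0.53 ± 0.32 (limma adjusted p = 0.74), which was -0.14 without OVX replicate 3.

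A ratio of genes within a library needs no scaling. Igfbp6 per Igfbp7 was 0.184, 0.200 and 0.192 in OVX-Omacs, against 0.224, 0.274 and 0.239 in sham Omacs. The groups did not overlap, and OVX replicate 3 lay between the other OVX libraries, although it was the lowest library for both genes. As a share of the summed binding proteins, Igfbp6 made up 14.7%, 15.7% and 14.3% in OVX-Omacs, against 17.4%, 20.5% and 18.4% in sham Omacs. The summed binding proteins themselves were at 723, 650 and 325 TPM in OVX-Omacs, against 737, 786 and 835 TPM in sham Omacs. These ratios were set up with the levels known and got no test, and an exact permutation test of 3 against 3 libraries could not go below p = 0.1.

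**Figure D3:**
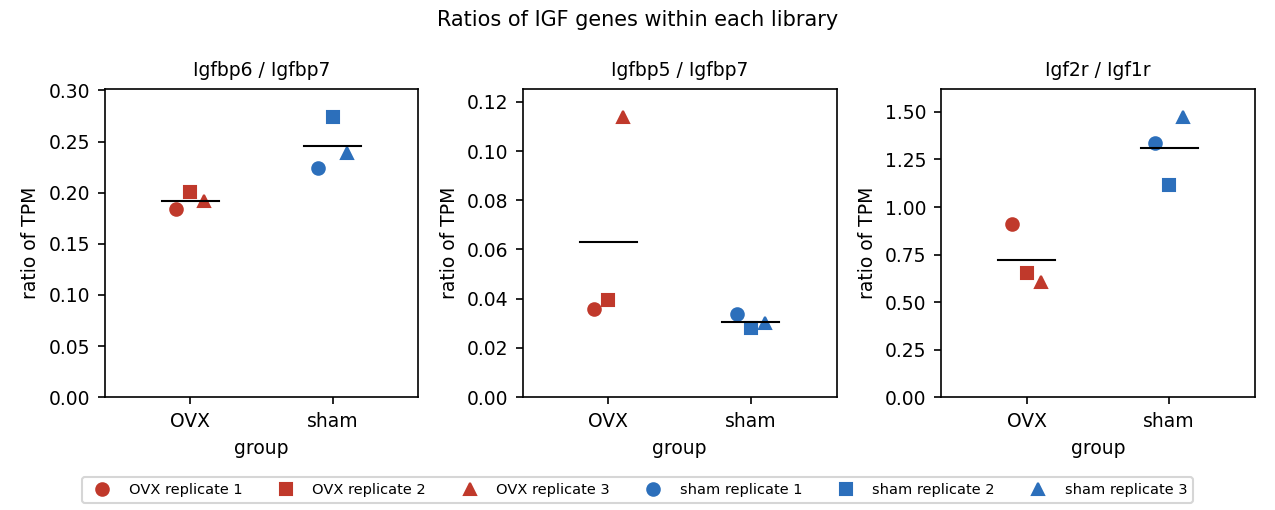
Ratios of TPM within each library for Igfbp6 per Igfbp7, Igfbp5 per Igfbp7 and Igf2r per Igf1r, with OVX libraries (red) left of sham libraries (blue), 1 point a library and bars at the group means. The groups do not overlap in any panel, but the ratios were picked with the levels known and no share over other gene pairs was computed. Other ratios, such as Igfbp3 per Igfbp7 and Igf2 per summed binding proteins, overlapped. In the first panel the OVX values run from 0.184 to 0.200 and the sham values from 0.224 to 0.274. In the second, OVX replicate 3 stands far above the rest at 0.114.

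Igfbp5 was the binding protein with a higher mean in OVX-Omacs. It lies next to Igfbp2 on chromosome 1 (ENSMUSG00000026185, 72857932 to 72874884, minus strand), and its protein-coding transcript of 4 exons is listed. Igfbp5 was at 20.79, 20.04 and 27.5 TPM in OVX-Omacs, against 19.3, 16.6 and 19.2 TPM in sham Omacs. All OVX libraries were above all sham libraries, but OVX replicate 2 and sham replicate 1 were close. As deposited, before scaling, Igfbp5 was at 20.75, 20.16 and 23.14 TPM in OVX-Omacs, against 20.14, 16.53 and 21.94 TPM in sham Omacs, which overlap. The means were 22.8 ± 4.11 TPM in OVX-Omacs and 18.4 ± 1.52 TPM in sham Omacs, and the log2 fold change was 0.28 ± 0.17 (limma adjusted p = 0.74). Without OVX replicate 3 it was 0.15. In OVX replicate 3, Igfbp5 was the highest of all libraries while Igfbp3, Igfbp4, Igfbp6 and Igfbp7 were the lowest, so that Igfbp5 took 8.47% of its binding protein TPM, against 2.12% to 3.08% in the other 5 libraries.

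Igfbp3 encodes the main carrier of IGFs in blood, which forms a ternary complex with the acid-labile subunit. It lies on chromosome 11 (7206086 to 7213923, minus strand), and 1 of 2 annotated transcripts is listed. Igfbp3 was at 13.5, 13.8 and 6.57 TPM in OVX-Omacs, against 13.4, 14.2 and 16.9 TPM in sham Omacs. Only OVX replicate 3 was below all sham libraries. The log2 fold change of -0.42 ± 0.28 (limma adjusted p = 0.76) was -0.11 without that library. Igfbp3 per Igfbp7 was 0.0234 to 0.0272 in OVX-Omacs and 0.0235 to 0.0264 in sham Omacs, so this pair of genes kept nearly one ratio over the libraries.

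Igfbp4, whose protein inhibits IGF action until the protease PAPP-A cuts it, was at 4.00, 4.05 and 2.77 TPM in OVX-Omacs, against 4.64, 5.71 and 4.29 TPM in sham Omacs. The groups did not overlap, with a small gap between OVX replicate 2 and sham replicate 3. The log2 fold change was -0.36 ± 0.19 (limma adjusted p = 0.73) and -0.22 without OVX replicate 3. Of 6 annotated Igfbp4 transcripts (chromosome 11, 99041244 to 99054392, plus strand) 3 are listed. The full-length coding transcript was at 2.43, 3.01 and 2.33 TPM as deposited in OVX-Omacs, against 3.01, 2.76 and 3.83 TPM in sham Omacs, which overlap. The rest came from short transcripts that were at 0 in some libraries of both groups, so the gene's sum moved with those.

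Of the ligands, Igf2 was the more abundant. It lies on chromosome 7 (ENSMUSG00000048583, 142650766 to 142666816, minus strand) in an imprinted cluster. Igf2 was at 4.51, 6.54 and 3.79 TPM in OVX-Omacs, against 8.16, 7.66 and 7.36 TPM in sham Omacs. No library of one group reached the other, and the lowest sham library was close to OVX replicate 2. The means were 4.95 ± 1.43 TPM in OVX-Omacs and 7.72 ± 0.407 TPM in sham Omacs (SD, n = 3 each). The log2 fold change was -0.58 ± 0.20 with a limma adjusted p of 0.68 and an unadjusted 95% interval of -1.05 to -0.10, and it was -0.44 without OVX replicate 3.

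In 5 of the 6 libraries, all but OVX replicate 1, noncoding transcripts held most of the Igf2 value. Of 9 annotated transcripts 6 are listed, and a processed transcript without a coding region, of 2 exons at the 3′ end of the gene, was at 1.08, 5.06 and 2.39 TPM as deposited in OVX-Omacs, against 5.62, 5.41 and 5.40 TPM in sham Omacs. It lies within the span of coding transcripts, and how shared reads were divided between them is not known. The protein-coding transcripts together were at 2.97, 1.52 and 0.80 TPM in OVX-Omacs, against 2.90, 2.20 and 2.99 TPM in sham Omacs. The coding sum overlapped between groups, with OVX replicate 1 near the top of the sham range. The noncoding sum did not overlap as deposited, but the scaling factor was 1.01 for OVX replicate 2 and 1.14 for sham replicate 3. After division by these factors, the noncoding sum of OVX replicate 2 lay above that of sham replicate 3, so the groups overlapped. With coding transcripts alone, an alternative chosen after the data were seen, the log2 fold change of Igf2 was -0.39. The antisense gene Igf2os was listed at 0 in all libraries, and H19, the noncoding RNA of the same imprinted cluster, was at 0.392 to 0.972 TPM in OVX-Omacs and at 0 to 1.68 TPM in sham Omacs.

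**Figure D4:**
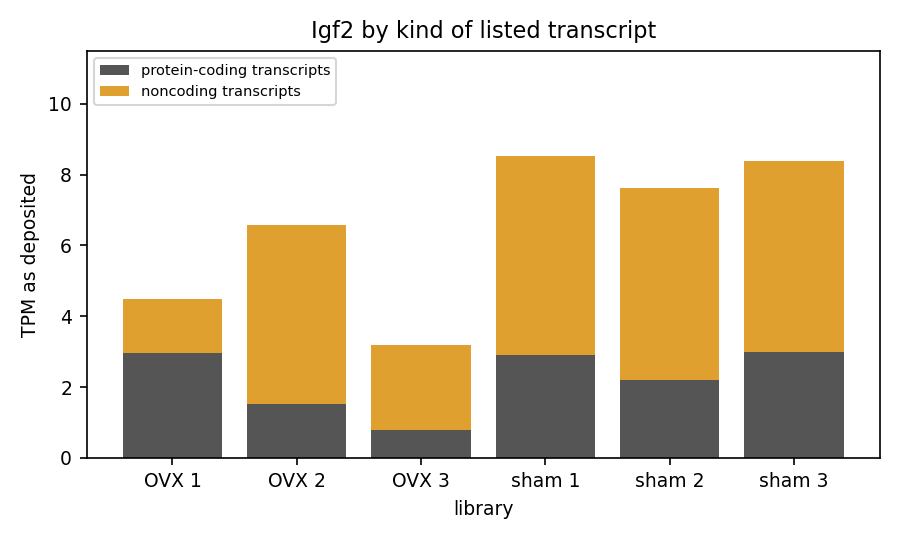
TPM as deposited of Igf2 in each library, with protein-coding transcripts (grey) and noncoding transcripts (orange) stacked, OVX libraries left of sham libraries. The noncoding part is 1.53 to 5.06 TPM in OVX-Omacs and 5.40 to 5.62 TPM in sham Omacs; the coding part is at 2.97 TPM in OVX replicate 1 and at 2.20 to 2.99 TPM in the sham libraries.

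Igf1 (chromosome 10, 87858265 to 87937042, plus strand) was close to 0. It was at 0.170, 0.179 and 0.523 TPM in OVX-Omacs, against 0.172, 0.372 and 0.684 TPM in sham Omacs. These overlapped over most of their range, and the gene was below the minimum mean of 1 TPM and was not tested. Of its 8 annotated transcripts 1 is listed, so the sum can miss part of its RNA. For Igf1 per 1000 TPM of summed binding proteins the values were 0.236, 0.275 and 1.61 in OVX-Omacs, against 0.234, 0.474 and 0.819 in sham Omacs, and the groups overlapped.

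The receptors, Igf1r on chromosome 7 (67952827 to 68233668, plus strand) and Igf2r on chromosome 17 (12682406 to 12769664, minus strand), were both near 2 TPM on average. Igf1r was at 1.88, 1.84 and 4.41 TPM in OVX-Omacs, against 2.05, 1.82 and 1.48 TPM in sham Omacs. Its higher OVX mean came from OVX replicate 3 alone: the log2 fold change of 0.35 ± 0.28 (limma adjusted p = 0.78) was 0.05 without it. Igf2r was at 1.713, 1.203 and 2.674 TPM in OVX-Omacs, against 2.74, 2.03 and 2.18 TPM in sham Omacs. For this gene OVX replicate 3 was the highest OVX library, and the log2 fold change of -0.24 ± 0.23 (limma adjusted p = 0.81) was -0.44 without it.

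Set against each other, the receptors separated the groups. Igf2r per Igf1r was 0.910, 0.654 and 0.607 in OVX-Omacs, against 1.34, 1.12 and 1.47 in sham Omacs. Igf1r was thus the higher of the pair in every OVX library and Igf2r in every sham library. Both rest on low TPM from 1 listed transcript each, the depth behind them is unknown, and the ratio got no test.

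Summed marker lists of other cell types are given beside these genes. The 12 stromal and fibroblast markers, all listed and 0 of 11 tested called, summed to 11080 to 18760 TPM in OVX-Omacs and 17610 to 18260 TPM in sham Omacs, with OVX replicate 3 the lowest. None of them was at 0 in all libraries, and Dcn held 72.5% to 85.8% of the sum in OVX-Omacs and 78.8% to 80.6% in sham Omacs. Per 1000 TPM of that list, Igfbp6 was at 5.68, 5.74 and 4.18 in OVX-Omacs, against 7.26, 8.82 and 8.52 in sham Omacs, and the groups did not overlap. Igfbp7 by the same measure was at 30.8, 28.7 and 21.8 in OVX-Omacs, against 32.5, 32.2 and 35.7 in sham Omacs. Igfbp5 was at 1.11, 1.13 and 2.48 in OVX-Omacs, against 1.096, 0.911 and 1.07 in sham Omacs. Relative to this list, Igfbp6 and Igfbp7 were thus lower in every OVX library than in every sham library, and so was Igf2. Igfbp3 overlapped, at 0.721, 0.774 and 0.593 in OVX-Omacs, against 0.762, 0.777 and 0.941 in sham Omacs. Igfbp4 overlapped too, at 0.213, 0.227 and 0.250 in OVX-Omacs, against 0.263, 0.313 and 0.239 in sham Omacs. The list sum was within or above its sham range in OVX replicates 1 and 2, but its main genes went different ways. Dcn was lower in every OVX library, at 13600, 13040 and 9508 TPM, against 13880, 14710 and 14190 TPM in sham Omacs. Sparc was at 5052, 4670 and 1466 TPM in OVX-Omacs, against 3619, 3442 and 3669 TPM in sham Omacs. The ratios to the list therefore rest on its mix of genes, and they got no test.

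Several other lists separated the groups. The neutrophil list (8 of 10 listed, 0 of 7 tested called) summed to 132000 to 141600 TPM in OVX-Omacs and 69670 to 89310 TPM in sham Omacs. Nearly all of it was S100a9 and S100a8. Ngp, the next most abundant, was at 5249, 5026 and 2596 TPM in OVX-Omacs, against 2442, 2417 and 2371 TPM in sham Omacs. For Ngp, OVX replicate 3 was thus close to the sham libraries. The osteoblast and osteocyte list (6 of 11 listed, 1 at 0 in all libraries, 0 of 4 tested called) was at 4454 to 5352 TPM in OVX-Omacs and 6456 to 6462 TPM in sham Omacs. Nearly all of it was Spp1, osteopontin. Ibsp was at 18.8, 18.6 and 46.4 TPM in OVX-Omacs, against 23.0, 22.3 and 15.2 TPM in sham Omacs. Its higher OVX mean, 27.9 TPM against 20.2 TPM, thus came from OVX replicate 3. The skeletal muscle list (7 of 7 listed, 0 of 6 tested called) was at 131 to 161 TPM in OVX-Omacs and 204 to 216 TPM in sham Omacs. Its most abundant gene, Tnnc2, overlapped, at 54.4, 39.7 and 93.9 TPM in OVX-Omacs, against 67.1, 80.8 and 64.8 TPM in sham Omacs. The next genes, Acta1 and Tnni2, were lower in every OVX library than in every sham library. The macrophage and sort list (11 of 15 listed, 0 of 8 tested called), led by Cd14, Lgals3 and Lyz2, was at 1768 to 2307 TPM in OVX-Omacs and 1676 to 1731 TPM in sham Omacs. Of these genes, only Lgals3 was higher in every OVX library than in every sham library. In OVX replicate 3, Cd14 was at 582.6 TPM, against 672.2 to 771.3 TPM in sham Omacs. Lyz2 in that library was at 262.4 TPM, against 267.1 to 283.7 TPM in sham Omacs. The adipocyte and endothelial lists had 1 listed marker each, Fabp4 at 331 to 337 TPM in OVX-Omacs and 384 to 478 TPM in sham Omacs, and Plvap at 11.01 to 18.35 TPM in OVX-Omacs and 21.9 to 33.3 TPM in sham Omacs. The ranges overlapped for smooth muscle and pericyte markers (5 of 7 listed), at 45.3 to 50.8 TPM in OVX-Omacs and 43.0 to 55.3 TPM in sham Omacs, and 0 of 6 erythroid markers were listed. Chondrocyte markers (10 of 10 listed, 0 called) were at 944 to 1355 TPM in OVX-Omacs and 1342 to 1494 TPM in sham Omacs, but not in one direction. Col2a1, the cartilage collagen, was at 118.6, 123.2 and 119.3 TPM in OVX-Omacs, against 68.4, 71.0 and 68.7 TPM in sham Omacs, while Chad averaged 454 TPM in OVX-Omacs and 628 TPM in sham Omacs. The part of these cell types in the differences of the IGF genes was not tested.

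**Figure D5:**
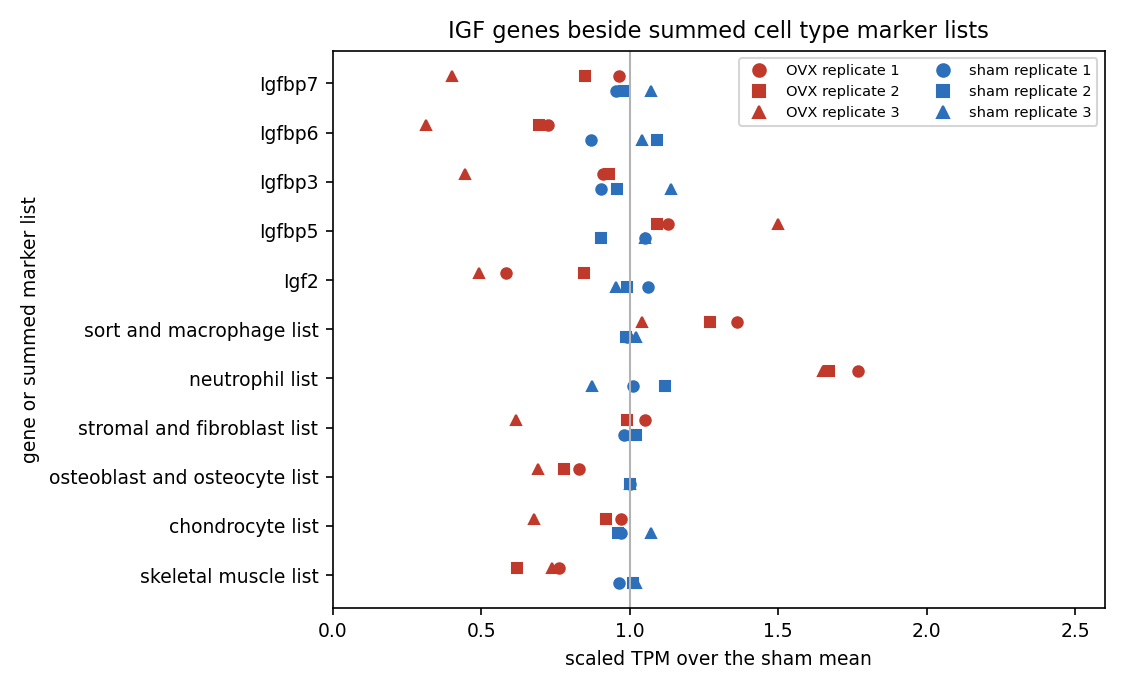
Scaled TPM of 5 IGF genes and 6 summed marker lists in each library, divided by the sham mean, with OVX libraries (red) drawn above sham libraries (blue). OVX replicate 3 (red triangle) is at 0.314 of the sham mean for Igfbp6, 0.402 for Igfbp7 and 0.617 for the stromal and fibroblast list. All OVX libraries are at 1.65 or more for the neutrophil list, nearly all of which is S100a9 and S100a8.

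The wider IGF pathway showed no called gene. Of 70 other pathway genes listed, 49 were tested, 0 were called, 26 had a log2 fold change above 0 and 23 below, and the median was 0.00, against -0.01 over all tested genes. Groups did not overlap for 6 genes that were higher and 3 that were lower, against 7.42% and 7.8% of all tested genes. An unadjusted p under 0.05 was reached by 4 of the 49 genes, against 3.46% of all tested genes higher and 3.42% lower, so the share was near the background. These were the protease Mmp14 (log2 fold change -0.47) and the inhibitor Timp2 (-0.41) with lower means in OVX-Omacs, and Stc2 (0.54), an inhibitor of PAPP-A, and Ccn1 (0.36) with higher means. Stc2 was low, averaging 1.70 TPM in OVX-Omacs and 0.858 TPM in sham Omacs. Stc1, from the same list of proteases and inhibitors, went the other way. It was at 0.411, 0.318 and 0.428 TPM in OVX-Omacs, against 0.690, 0.553 and 0.754 TPM in sham Omacs, too low to be tested. Without OVX replicate 3 the median over 50 tested pathway genes was 0.03.

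The proteases that cut binding proteins, with their inhibitors, comprised 10 tested genes, 7 with a log2 fold change below 0 and 3 above, and a median of -0.29. Without OVX replicate 3 the median was -0.02, with 6 below 0 and 4 above. The most abundant was the matrix protease Mmp3, at 26170, 25280 and 12360 TPM in OVX-Omacs, against 25660, 25830 and 26630 TPM in sham Omacs. Its log2 fold change of -0.37 ± 0.30 (limma adjusted p = 0.78) was -0.02 without OVX replicate 3. Timp1, an inhibitor of such proteases, was at 4420, 4024 and 2453 TPM in OVX-Omacs, against 4402, 4409 and 4110 TPM in sham Omacs, and its log2 fold change of -0.29 was -0.03 without that library. Htra1, a secreted serine protease that cuts IGF binding proteins, was at 170.8, 177.8 and 122.2 TPM in OVX-Omacs, against 197.1, 181.7 and 191.6 TPM in sham Omacs. Its groups did not overlap, with a log2 fold change of -0.29 ± 0.17 (limma adjusted p = 0.74), or -0.12 without OVX replicate 3. Ctsd, the lysosomal protease cathepsin D, was at 135.7, 133.7 and 69.9 TPM in OVX-Omacs, against 100.3, 91.0 and 100.4 TPM in sham Omacs. Its first 2 OVX libraries were above all sham libraries and OVX replicate 3 was below them, with a log2 fold change of 0.16 over all libraries and 0.47 without OVX replicate 3. Pappa, the protease of IGFBP4, was below 1 TPM in every library.

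Genes downstream of the receptors went both ways. Among adaptors, 5 were tested with a median of 0.06, and Grb10, an inhibitory adaptor of the insulin and IGF1 receptors, was at 5.50, 5.55 and 9.13 TPM in OVX-Omacs, against 5.23, 4.57 and 4.34 TPM in sham Omacs (log2 fold change 0.41 ± 0.22, limma adjusted p = 0.73, and 0.20 without OVX replicate 3). In the PI3K, Akt, mTOR and MAPK branch 22 genes were tested, 12 with a log2 fold change above 0 and 10 below, between -0.50 for the kinase gene Map2k2 and 0.35 for Tsc2, with a median of 0.02. Without OVX replicate 3 Map2k2 was at 0.11 and Tsc2 at 0.32. The most abundant gene of this branch, the translation repressor Eif4ebp1, was at 407.8, 418.5 and 408.7 TPM in OVX-Omacs, against 373.3, 369.5 and 371.5 TPM in sham Omacs, without overlap (log2 fold change 0.15 ± 0.12, limma adjusted p = 0.78). Rheb, the GTPase that activates mTOR, was at 162, 148 and 221 TPM in OVX-Omacs, against 144, 141 and 131 TPM in sham Omacs (log2 fold change 0.33 ± 0.18, limma adjusted p = 0.73, and 0.16 without OVX replicate 3). In the growth hormone axis, which drives Igf1 transcription, 6 genes were tested with a median of 0.04 (0.14 without OVX replicate 3), and the receptor Ghr averaged 5.81 ± 0.422 TPM in OVX-Omacs and 5.81 ± 1.66 TPM in sham Omacs. The list of other binding proteins and that of the Igf2 locus had 1 tested gene each, Crim1 (log2 fold change -0.34) and Mrpl23 (-0.14, and -0.41 without OVX replicate 3).

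The CCN proteins share a domain type with the binding proteins, and 4 of them were tested. Ccn2, a matrix protein induced by TGF-beta, was at 909.9, 870.5 and 599.4 TPM in OVX-Omacs, against 585.0, 598.8 and 779.7 TPM in sham Omacs. Its log2 fold change was 0.27 over all libraries and 0.46 when OVX replicate 3 was left out. Ccn1 was at 113.8, 113.3 and 90.9 TPM in OVX-Omacs, against 81.8, 77.0 and 87.3 TPM in sham Omacs, which did not overlap. Its log2 fold change was 0.36 ± 0.15 with a limma adjusted p of 0.71, and 0.47 without OVX replicate 3.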

How the data were processed

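RNA of sorted Omacs was sequenced in 3 OVX and 3 sham libraries, grouped by their titles. No source says whether libraries stand for separate animals, and p-values therefore cover only the spread between libraries, which may be technical. The authors deposited TPM per transcript. The submitters' processing notes name HISAT2 2.0.5 and featureCounts 1.5.0-p3, and the study's methods name mm10, but the step to TPM is not stated. Deposited columns of the authors' comparison (mean level, log2 fold change, its error, statistic and p-values) were not used. TPM keep no counts, so the depth is unknown and no counting interval is given.

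TPM were summed per gene over listed transcripts, scaled with unweighted TMM factors (trimmed mean of M values, with 30% of M and 5% of A cut from either tail and OVX replicate 2 as reference) and tested with limma 3.58.1 (R 4.3.3) after taking log2(scaled TPM + 1), with group as the only term, for genes with a mean of at least 1. The factors were 0.998, 1.01 and 0.841 for OVX and 1.04, 0.994 and 1.14 for sham replicates 1 to 3. Fold changes on this scale understate changes of low genes. Transcripts and coordinates follow GENCODE M21 (GRCm38), and all 10 genes matched RefSeq promoter windows. The members and lists were chosen with earlier results of these data known. Named were all members, other pathway genes past the threshold (none), up to 4 abundant genes per pathway list and up to 3 per marker list. Grb10, Map2k2, Tsc2, Stc1, Stc2, Mmp14, Timp2, H19, Igf2os, Pappa and Pik3ca, as well as Csf1r and Adgre1, were named after their values were seen. Alternatives changed the scaling, pseudocount, filter, trend, weights, transcripts and libraries.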

Additional observations from a re-analysis of the deposited data

How the results depend on the processing

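All 141 values of the 8 tested members, over 18 alternatives, kept their direction and stayed short of the adjusted threshold, and the lowest adjusted p was 0.229, for Igfbp6 with library weights. The count of all genes called, 1 higher and 0 lower in OVX-Omacs, was not stable. It was 0 higher with a pseudocount of 0.1, 2 higher with the most abundant listed transcript of each gene, 0 higher with protein-coding transcripts only (chosen after seeing the data), and 20 higher and 7 lower with library weights. Leaving out 1 library at a time gave 0 to 7 higher and 0 to 3 lower, with the most calls, 7 and 3, without OVX replicate 3. The cause was not tested. With the replicate number as a block, 0 genes were called higher. Deviations from the group means did not correlate positively between same-numbered libraries (correlations of -0.056, -0.127 and -0.251). Within a group of 3 these deviations sum to 0 and so depend on each other. The check therefore cannot decide whether the numbers pair the samples. Without scaling, the median over all genes was -0.15 on the log2 scale, against -0.01 with it. TPM give no depth, only part of the transcripts of most genes are listed, and 1 of 3 OVX libraries stands apart, which limits the precision.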
